A study of Mus musculus with 14 samples.

Results

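The 9 genes described here, Tcf21, Twist1, Barx1, Nkx2-3, Prrx1, Nr2f1, Nr2f2, Osr1 and Tbx3, encode transcription factors known from the mesenchyme of the developing gut. They were chosen by gene symbol from a total of 12393 genes on the arrays. Every probe set annotated to exactly 1 of these symbols was used, which gave 17 of the 20380 probe sets with a single symbol. Mouse small intestine was profiled in 14 arrays of 4 groups. Adult villi had 3 arrays and adult crypts 3 arrays, all from C57BL/6 mice aged 12 weeks. E12 mesenchyme had 4 arrays and E12 endoderm 4 arrays, from the layers of fetal intestine parted after collagenase digestion at embryonic day 12. In each layer 3 arrays came from pools of 10 to 12 fetuses and 1 array from a pool of 35 fetuses. No mutant and no treatment was part of the design, and the labels name no strain for the fetuses.

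The gut tube is built from an inner endoderm, which becomes the epithelium of crypts and villi, and a surrounding mesenchyme, which becomes fibroblasts, smooth muscle and other stromal cells. Transcription factors of the mesenchyme set its regional character and control the signals that it sends to the endoderm. Tcf21 and Twist1 are basic helix-loop-helix factors, which bind E-boxes (CANNTG) as dimers with E proteins. Barx1, Nkx2-3 and Prrx1 are homeobox factors, Nr2f1 and Nr2f2 are the orphan nuclear receptors of the COUP-TF family, Osr1 is a zinc finger factor and Tbx3 is a T-box factor.

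RefSeq promoter windows on GRCm38.p6 were found for 7 members, Nr2f1 with windows at more than 1 start, and Osr1 and Tbx3 are given by name only. The 250 bases before the start are shown for Tcf21, Nr2f1 and Nkx2-3, the members with the largest differences between the E12 layers. Each is written 5′ to 3′ on the strand of its gene, with CANNTG, the E-box read by the helix-loop-helix members, in capitals. The windows are chr10:22820144-22820393 on the minus strand for Tcf21, chr13:78198874-78199123 on the minus strand for Nr2f1 and chr19:43612075-43612324 on the plus strand for Nkx2-3.
Tcf21: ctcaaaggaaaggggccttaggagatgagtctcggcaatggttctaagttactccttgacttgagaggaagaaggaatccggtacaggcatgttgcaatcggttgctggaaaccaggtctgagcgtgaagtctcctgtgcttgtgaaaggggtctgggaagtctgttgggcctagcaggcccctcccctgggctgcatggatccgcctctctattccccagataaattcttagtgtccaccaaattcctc
Nr2f1: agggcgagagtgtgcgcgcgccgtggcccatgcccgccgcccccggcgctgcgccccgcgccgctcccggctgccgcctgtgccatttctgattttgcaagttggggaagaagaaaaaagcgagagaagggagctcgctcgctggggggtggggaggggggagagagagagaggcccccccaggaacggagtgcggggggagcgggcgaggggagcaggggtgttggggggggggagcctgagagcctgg
Nkx2-3: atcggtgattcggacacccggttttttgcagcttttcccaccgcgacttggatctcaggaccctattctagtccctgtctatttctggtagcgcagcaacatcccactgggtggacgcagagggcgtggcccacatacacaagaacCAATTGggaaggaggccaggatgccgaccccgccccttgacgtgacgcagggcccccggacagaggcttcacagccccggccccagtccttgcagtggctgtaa
The Nkx2-3 window held 1 E-box, which lay 104 bases before the start, and neither the Tcf21 nor this Nr2f1 window held one. The GC content was 52.4% for Tcf21, 72.0% for this Nr2f1 window and 60.0% for Nkx2-3, beside a median of 52.4% over all 32851 windows. An E-box lay in 3 of the 8 member windows (Nkx2-3, Nr2f2 and the other Nr2f1 start) and in 66.2% of all windows, searched on both strands. TAATTA, a homeodomain core, lay in the Prrx1 window and in 4.84% of all windows. AGGTCA, a nuclear receptor half-site found in 14% of all windows, TCACACC, a T-box sequence found in 3.33%, and CACTTAA, an Nkx2 sequence found in 2.10%, lay in 0 member windows. These counts describe the letters of the windows only.

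Values are log2 signals of a probe set after RMA, so a difference of 1 is a 2-fold change, and levels of different probe sets are not set against each other. A signal under the 30th percentile of its table, 4.74 in the table of 6 E12 arrays and 5.78 in the table of 8 arrays, is called dim. In the 6-array table the layers carried the markers of their labels. All 14 epithelium markers tested were lower in mesenchyme, with Epcam at 6.41 in mesenchyme and 11.96 in endoderm. Of 12 fibroblast and mesenchyme markers tested 11 were higher in mesenchyme, with Col1a1 at 11.63 in mesenchyme and 5.16 in endoderm. The mesenchyme also held all 11 smooth muscle markers and all 11 endothelium markers at a higher level. The same held for 8 of 9 enteric neural crest markers and 8 of 9 blood and macrophage markers. Among all genes tested 25.4% were higher and 27.7% lower. In each endoderm array 5 of 11 endothelium markers lay under its 30th percentile. So did 2 to 3 of 9 enteric neural crest and 3 to 4 of 10 blood and macrophage markers. Markers tested only because their mesenchyme arrays were not dim had to be higher, so these counts are descriptions. The mesenchyme arrays thus hold the markers of several cell types.

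Of the 9 members, 8 passed the filter on dim signals in the E12 layers and 7 were higher in mesenchyme: Tcf21, Nr2f1, Nkx2-3, Osr1, Nr2f2, Twist1 and Tbx3. Among all 9441 genes tested, 25.4% were called higher in mesenchyme and 27.7% lower (limma, adjusted p under 0.05, 3 arrays a layer). No member was called lower. Twist1, Nr2f1 and Osr1 passed the filter through the mesenchyme arrays alone, so the count over members that passed is a description. The differences covered a wide range, with Tcf21 ranked 8 and Tbx3 ranked 1187 among the 9441 genes. In these bulk samples fewer cells of a type and less RNA per cell cannot be told apart.

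**Figure D1:**
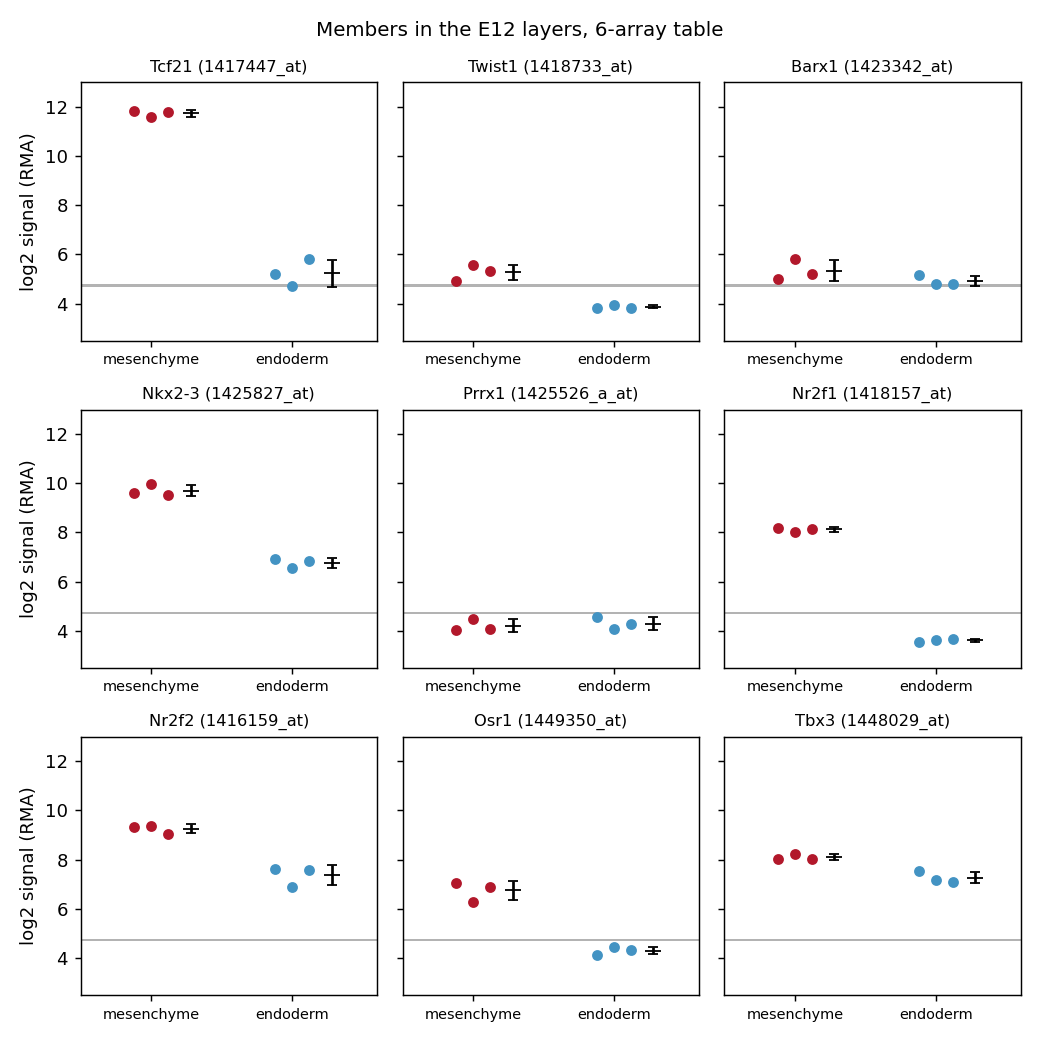
Log2 signal (RMA) of the probe set that stands for each member in E12 mesenchyme (red, left) and E12 endoderm (blue, right) of the 6-array table; points are arrays (3 a layer), the bar beside them is the mean with its SD and the grey band is the 30th percentile of the arrays. Tcf21, Nr2f1, Nkx2-3, Osr1, Nr2f2, Twist1 and Tbx3 show no overlap between layers, Barx1 overlaps, and Prrx1 lies under the band in every array.

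Tcf21, a helix-loop-helix factor needed for mesenchyme of lung, kidney and spleen, had the largest difference of the set. Its log2 signal was 11.84, 11.59 and 11.79 in the mesenchyme arrays, against 5.20, 4.72 and 5.81 in the endoderm arrays. All mesenchyme arrays were far above all endoderm arrays, and 1 endoderm array was dim. The difference was 6.50 ± 0.24 (SE), a 90.3-fold change (limma adjusted p = 1.4e-07). Twist1, a factor of mesoderm and of epithelial-mesenchymal transition, had much weaker signals. They were 4.92, 5.56 and 5.32 in mesenchyme, against 3.83, 3.95 and 3.84 in endoderm, where every array was dim. The layers did not overlap, and the difference was 1.39. Since Twist1 was tested only because its mesenchyme arrays passed the filter, this difference is a description, and no fold is given against the dim endoderm signal.

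Among the homeobox members, Nkx2-3, needed for spleen and for the gut's lymphoid vessels in the mouse, was higher in mesenchyme in all 3 of its probe sets. The probe set that stands for the gene read 9.61, 9.95 and 9.53 in mesenchyme, against 6.92, 6.54 and 6.85 in endoderm. The groups did not overlap, and the difference was 2.93 ± 0.15 (SE), or 7.60-fold (limma adjusted p = 7e-07). The other probe sets differed by 3.24 and 1.89. Barx1, known for its role in stomach mesenchyme, was not called. It read 5.0, 5.82 and 5.22 in mesenchyme, against 5.15, 4.80 and 4.80 in endoderm. The groups overlapped, since mesenchyme replicate 2 lay below endoderm replicate 2. The difference was 0.43, with a 95% interval of -0.05 to 0.91 (limma adjusted p = 0.12), and without mesenchyme replicate 2 it was 0.60 (adjusted p = 0.046). Prrx1, a homeobox factor of limb and craniofacial mesenchyme, was dim in both layers with all 4 of its probe sets. The brightest read 4.02, 4.50 and 4.09 in mesenchyme, against 4.56, 4.07 and 4.26 in endoderm. With no filter on dim genes its difference was -0.09, with a 95% interval of -0.47 to 0.28. A difference between the layers was thus not established for Barx1 over the 3 arrays a layer, and the dim signals of Prrx1 do not bear on where it is expressed.

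Both nuclear receptors were higher in mesenchyme. Nr2f1, known from neural and neural crest development, read 8.18, 8.02 and 8.16 in mesenchyme, against 3.55, 3.63 and 3.65 in endoderm, where all arrays were dim. The arrays of each layer lay close together, and the difference was 4.51, which is a description for the same reason as in Twist1. Nr2f2, which is known for vein identity and for gut mesenchyme, had its brightest probe set at 9.34, 9.37 and 9.04 in mesenchyme, against 7.63, 6.89 and 7.57 in endoderm. The layers did not overlap, yet no endoderm array was dim. The difference was 1.89 ± 0.20 (SE), or 3.70-fold (limma adjusted p = 7.7e-05), and its other probe sets differed by 2.02 and 1.64.

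Osr1, a factor of intermediate and lateral plate mesoderm, read 7.05, 6.29 and 6.90 in mesenchyme, against 4.13, 4.45 and 4.33 in endoderm. Every endoderm array was dim and every mesenchyme array was not. The difference was 2.44, again a description of a gene that passed the filter through mesenchyme alone. Tbx3, a T-box factor best known as a repressor, read 8.01, 8.23 and 8.04 in mesenchyme, against 7.52, 7.17 and 7.09 in endoderm. The layers did not overlap, but both had a clear signal. The difference was 0.83 ± 0.13 (SE), or 1.78-fold (limma adjusted p = 0.00083). Its other probe set overlapped between layers, at 5.01, 5.01 and 5.10 in mesenchyme and 5.01, 4.65 and 5.17 in endoderm, and the median of the probe sets gave 0.47. Over all 17 probe sets of the members 11 were higher in mesenchyme with no overlap between layers, beside 29.1% of all genes tested, and 10 were at least 2-fold higher, beside 10.8%. Those shares count 1 probe set a gene after the filter. The 17 are not filtered, hold several probe sets of 4 genes and include Twist1, Nr2f1 and Osr1, so these counts are a description.

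A second pair of layers was hybridised with the adult samples on another array platform, 1 array of mesenchyme and 1 of endoderm, each from the pool of 35 fetuses. With 1 array a layer, the SE and the calls of this limma fit come from the spread of the adult arrays and do not measure the spread between E12 samples. Tcf21 read 10.64 in mesenchyme and 5.30 in endoderm, a difference of 5.34. Nkx2-3 read 8.52 in mesenchyme and 6.57 in endoderm, Osr1 6.66 in mesenchyme and 4.15 in endoderm, and Nr2f2 7.36 in mesenchyme and 6.34 in endoderm. These 4 of the 7 members tested were called higher, beside 4.66% of 10750 genes. Tcf21 and Osr1 passed the filter through the mesenchyme array alone and had to be higher, so the count is a description. The Nr2f2 difference was 1.02 in the probe set that stands for the gene and 2.58 as the median of its probe sets. On that assumption of a shared spread, Tbx3 differed by 0.87 with an interval of -0.03 to 1.78 (adjusted p = 0.29), and Barx1 by -0.02 with an interval of -0.76 to 0.72 (adjusted p = 0.99). Nr2f1 was dim in both layers there, at 5.66 in mesenchyme and 3.57 in endoderm, as was Twist1 at 5.17 in mesenchyme and 4.52 in endoderm. The call of Nr2f2 on this platform was lost without crypt replicate 21 (adjusted p = 0.079), villus replicate 12 (0.058) or villus replicate V275 (0.065), which set the spread.

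**Figure D2:**
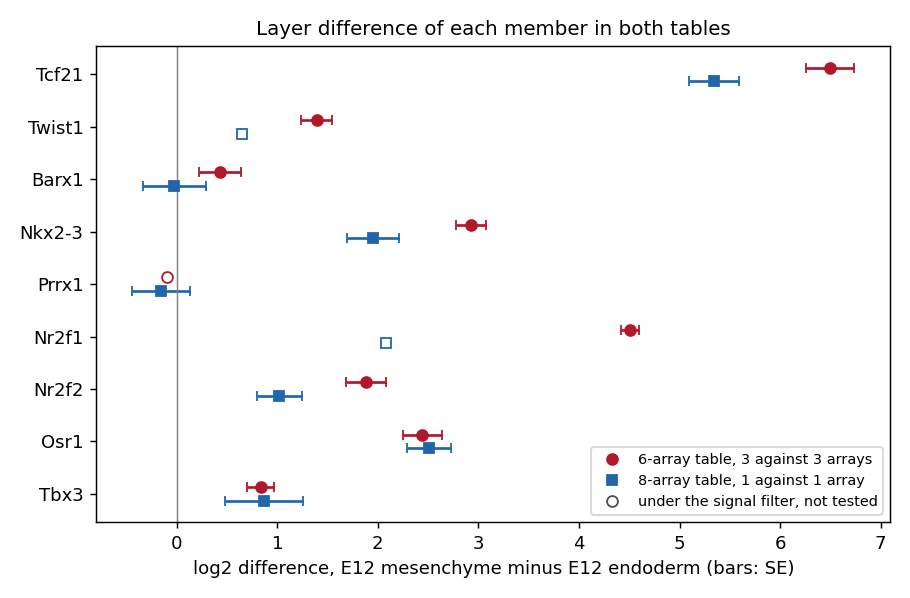
Log2 difference, E12 mesenchyme minus E12 endoderm, of each member in the 6-array table (circles, 3 against 3 arrays) and in the 8-array table (squares, 1 against 1 array); bars are SE from limma, for the squares from the spread of the adult arrays, and open symbols were not tested because the signals were dim. Tcf21 lies furthest right on both platforms, at 6.50 and 5.34. Barx1 lies at 0.43 and -0.02. Prrx1 lies at -0.09 and -0.15, with a different probe set in each table.

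Gene lists were set beside the members in the 6-array table. Of 25 other mesenchyme transcription factors tested 19 were higher in mesenchyme and 2 lower, with a median difference of 0.86. Of the 34 on the arrays, 18 lay under the 30th percentile of each endoderm array and 9 to 10 under that of each mesenchyme array. Genes that passed the filter through mesenchyme alone had to be higher, so this count and median are descriptions. Of 9 relatives of the members that were tested 4 were higher in mesenchyme and 2 lower, with a median difference of 0.20, beside -0.03 over all genes. Among all genes tested 25.4% were higher and 27.7% lower. Tbx2, the closest relative of Tbx3, differed by 3.97 and read 7.97 in mesenchyme and 4.00 in endoderm. Twist2 differed by 2.27, Tcf15 by 0.90 and Prrx2 by 0.60. Osr2, the relative of Osr1, had the opposite direction to Osr1: it read 4.58 in mesenchyme and 8.36 in endoderm, a difference of -3.77. On average Osr2 was dim in mesenchyme and Tbx2 in endoderm. Each passed the filter through the other layer, so both differences and the count of relatives are descriptions. Nr2f6 differed by -0.40. The remaining tested relatives, Nkx2-5, Nkx2-6 and Tbx5, did not pass, with differences of 0.20, 0.02 and 0.04.

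The E proteins Tcf3, Tcf4 and Tcf12 are the dimer partners of Tcf21 and Twist1, and the Id proteins bind E proteins and keep them from DNA. Of these 7 genes 5 were higher in mesenchyme, beside 25.4% of all genes tested. Id4 read 9.69 in mesenchyme and 4.48 in endoderm, where it was dim on average, so the count is a description. Id1 differed by 2.11 and Id3 by 1.72. Tcf4 differed by 1.40 and Tcf12 by 0.45. Tcf3 read 9.52 in mesenchyme and 9.57 in endoderm, and Id2 11.25 in mesenchyme and 11.39 in endoderm, and neither passed the test (limma adjusted p = 0.67 for Tcf3 and 0.51 for Id2).

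Of 14 genes listed as reported targets of the members in other settings, 10 were tested, 9 were higher in mesenchyme and 1 was lower. Among all genes tested the shares were 25.4% higher and 27.7% lower. Cdh11, a cadherin of mesenchyme, read 10.93 in mesenchyme and 4.03 in endoderm, and Pdgfra, a growth factor receptor of fibroblasts, read 10.44 in mesenchyme and 4.52 in endoderm. Both were dim on average in endoderm and passed the filter through mesenchyme, so the count of targets is a description. The Wnt antagonists Sfrp1 and Sfrp2, reported downstream of Barx1 in mouse stomach mesenchyme, differed by 4.81 and 2.32, while Barx1 itself was not called here. Postn differed by 4.71, Nrp2 by 1.52, Angpt1 by 1.30 and Tnc by 0.34. Madcam1, the vessel adhesion molecule that depends on Nkx2-3 in the mouse, differed by 1.31. Cdkn1a, a cell cycle inhibitor that T-box repressors are reported to control, read 6.00 in mesenchyme and 8.76 in endoderm, a difference of -2.75. Pdgfra is also on the fibroblast list, and the list of targets was drawn up with results of these data known.

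Markers of endothelium, enteric neural crest and blood moved with the members between the layers, while those of mesothelium were mixed. Of 4 mesothelium markers tested 2 were higher in mesenchyme and 1 lower. The summed linear signal of all 8 on the arrays, in which the brightest genes dominate, was 1500 to 1650 in mesenchyme and 3330 to 3710 in endoderm. Their mean log2 signal had the other order, at 6.145 to 6.21 in mesenchyme and 5.92 to 6.03 in endoderm. The summed linear signal of the endothelium markers was 2450 to 2620 in mesenchyme and 551 to 680 in endoderm, that of the enteric neural crest markers was 3390 to 3780 in mesenchyme and 1230 to 1310 in endoderm, and that of the blood and macrophage markers was 1050 to 1160 in mesenchyme and 283 to 287 in endoderm. Pecam1 was dim in all endoderm arrays, at 4.57, against 8.05 in mesenchyme, and Sox10 read 8.40 in mesenchyme and 5.85 in endoderm. The part of these cell types in the members' differences was not tested.

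In the adult, villi were compared with crypts on 3 arrays each. Tbx3 was higher in villi, and Nr2f2 was slightly lower in villi with a call that depended on single arrays. Of the 5 members tested 1 was called higher and 1 lower, beside 16.9% higher and 15.0% lower among 9961 genes. Tcf21, Twist1, Nr2f1 and Osr1 were dim in every villus and every crypt array, and were not tested there. Tcf21 read 4.48, 4.59 and 4.83 in villi, against 4.64, 4.54 and 4.65 in crypts. With no filter on dim genes, its difference was 0.03 with an interval of -0.29 to 0.34. Twist1 lay between 4.59 and 4.69 in villi and between 4.58 and 4.63 in crypts. Nr2f1 lay between 3.36 and 3.58 in villi and between 3.49 and 3.60 in crypts. Osr1 lay between 4.35 and 4.53 in villi and between 4.53 and 4.54 in crypts. The signals of Twist1, Nr2f1 and Osr1 all lay more than 1 log2 unit under the 30th percentile of the table.

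Tbx3 read 9.28, 9.82 and 9.13 in villi, against 6.85, 6.59 and 7.13 in crypts. Every villus array was above every crypt array. The difference was 2.55 ± 0.23 (SE), or 5.87-fold (limma adjusted p = 0.00034). Its other probe set moved less but in the same direction, at 6.97, 6.80 and 6.83 in villi and 6.43, 6.51 and 6.27 in crypts, and taking the median of the probe sets gave 1.51. Without any 1 array, and with the shared replicate number as a block, Tbx3 was still called higher.

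Nr2f2 read 5.82, 5.73 and 5.89 in villi, against 6.36, 6.28 and 6.16 in crypts. The groups did not overlap, but the signals lay close to the 30th percentile, and 1 villus array was dim. The difference was -0.45 ± 0.13 (SE, limma adjusted p = 0.034). The call was lost without crypt replicate 12, crypt replicate 21 or any 1 villus replicate (adjusted p = 0.07 to 0.11). It was also lost with the replicate number as a block (0.23). The other Nr2f2 probe sets, dim in every adult array, differed by -0.47 and -0.14, the latter with overlap. Barx1 read 6.27, 6.72 and 6.69 in villi, against 7.36, 7.07 and 6.93 in crypts. Its groups did not overlap either, and it missed the threshold at a difference of -0.56 (limma adjusted p = 0.052). Nkx2-3 read 6.68, 6.64 and 6.58 in villi, against 6.71, 6.99 and 6.60 in crypts, with overlap (limma adjusted p = 0.54). A second probe set of Nkx2-3, dim in all villi, read 5.41, 5.56 and 5.36 in villi, against 5.85, 6.01 and 5.87 in crypts. Prrx1 read 5.78, 6.11 and 5.87 in villi, against 6.05, 5.62 and 5.85 in crypts, and its groups overlapped (limma adjusted p = 0.75). In this probe set, not the brightest one of the 6-array table, villus replicate 12 and crypt replicate 21 were dim. Another, dim in every adult array, read 5.12, 5.68 and 5.71 in villi, against 4.62, 4.70 and 4.66 in crypts, without overlap. The remaining Prrx1 probe sets were dim in every adult array and overlapped. Among all 17 probe sets of the members 3 were higher in villi and 5 lower with no overlap, beside 24.3% and 23.5% of all genes tested, and several of those were dim. A single one, the brighter probe set of Tbx3, was at least 2-fold higher in villi, beside 11% of all genes. Those shares count 1 probe set a gene after the filter, while the 17 probe sets are not filtered.

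**Figure D3:**
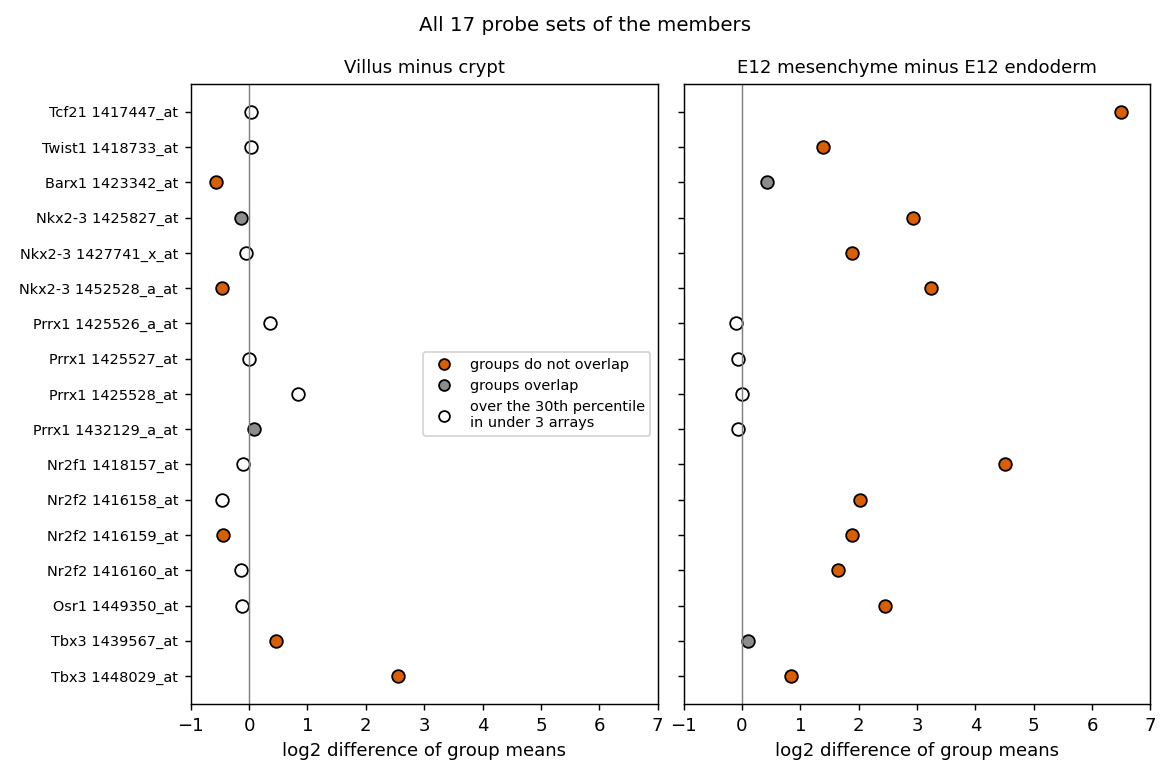
Log2 difference of group means for all 17 probe sets of the members, villus minus crypt on the left and E12 mesenchyme minus E12 endoderm on the right; orange points mark groups that do not overlap, grey points groups that overlap and open points probe sets over the 30th percentile in under 3 arrays. The brighter probe set of Tbx3 is the 1 member probe set at least 2-fold higher in villi, while 10 probe sets are at least 2-fold higher in mesenchyme.

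Adult villi and crypts held little fibroblast signal by these markers. Their summed linear signal was 1390 to 1720 in villi and 1310 to 1620 in crypts, against 21800 in the E12 mesenchyme array of the same table. Of 10 fibroblast and mesenchyme markers tested 2 were higher in villi, Thy1 by 0.71 and Vim by 0.65, and Col1a1 read 6.55 in villi and 6.60 in crypts. The summed signal of the smooth muscle markers was 1840 to 2180 in villi and 1140 to 1670 in crypts. By limma 0 of 8 smooth muscle markers tested were called, 2 of them at an unadjusted p under 0.05. Of 8 blood and macrophage markers tested 2 were higher in villi, among them the pan-leukocyte marker Ptprc at 8.34 in villi and 6.56 in crypts, and 2 were lower, among them Lyz2 at 8.64 in villi and 12.07 in crypts. Their summed signal was 1470 to 2390 in villi and 5130 to 5820 in crypts, a sum in which bright genes such as Lyz2 dominate. The mean log2 signal of the same 10 genes was 6.85 to 7.11 in villi and 7.11 to 7.17 in crypts. The summed signal of the epithelium markers was 51600 to 63500 in villi and 29800 to 40900 in crypts. The summed signal of the enteric neural crest markers was 2540 to 4000 in villi and 1350 to 1520 in crypts. Of 5 of these markers tested 1 was called higher in villi. The endothelium markers summed to 1140 to 1230 in villi and 1110 to 1360 in crypts. The mesothelium markers summed to 2550 to 6040 in villi and 4730 to 8580 in crypts, again with the brightest genes dominating. Their mean log2 signal was 5.87 to 6.04 in villi and 5.98 to 6.11 in crypts. The part of these cell types in the Tbx3 and Nr2f2 differences was not tested.

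The related lists were also compared between villi and crypts. Nkx2-6, the relative of Nkx2-3, was 1 of 9 relatives to pass, at -0.43 (limma adjusted p = 0.046). Of the 5 reported targets tested, Cdkn1a was higher, at 12.06 in villi and 9.42 in crypts, a difference of 2.63 ± 0.27 (SE, limma adjusted p = 0.00054). Cdkn1a and Tbx3 were both higher in villi, whereas between the E12 layers they had opposite signs. Of 7 E proteins and Id proteins tested 3 were called higher in villi and 2 lower. Among all genes tested the shares were 16.9% higher and 15% lower. Id3 differed by 1.99, Id1 by 1.27 and Id2 by 0.85, and Tcf12 by -1.75 and Tcf3 by -0.93.

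Against the single E12 mesenchyme array of the 8-array table, adult villi and adult crypts had lower signals of Tcf21, Nkx2-3, Nr2f2 and Osr1. Tcf21 differed by -6.01 in villi and -6.04 in crypts, Osr1 by -2.24 in villi and -2.12 in crypts, and Nkx2-3 by -1.89 in villi and -1.75 in crypts. Nr2f2 differed by -1.54 in villi and -1.09 in crypts, and its other probe sets, dim in all adult arrays, by -3.61 and -2.29 in villi and by -3.15 and -2.15 in crypts. The median of the Nr2f2 probe sets gave -2.76 in villi and -2.62 in crypts. For villi 4 of 7 members tested were called lower, beside 24.3% of 10750 genes, and 1 higher, beside 21.5%. For crypts 5 of 7 were called lower, beside 19.0%. Both comparisons share the E12 array, which has no replicate in this table. Tcf21 and Osr1 were dim in all adult arrays and passed the filter through the E12 mesenchyme array, so they had to differ.

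Tbx3 had a different order of levels. It averaged 9.41 ± 0.37 in villi (SD, n = 3) and 6.86 ± 0.27 in crypts (SD, n = 3), beside 7.82 in the E12 mesenchyme array and 6.95 in the E12 endoderm array. Villi were higher than E12 mesenchyme by 1.59 ± 0.32 (SE, limma adjusted p = 0.0049) in the brighter probe set. The other probe set differed by 0.16, and the median gave 0.87 (adjusted p = 0.0074). Crypts differed from E12 mesenchyme by -0.97 (limma adjusted p = 0.05 after rounding, called lower), and that call was lost with no filter on dim genes (0.053) and without crypt replicate 12 (adjusted p = 0.1), crypt replicate 21 (0.12), villus replicate 12 (0.062) or villus replicate V275 (0.052). The other Tbx3 probe set differed by -0.30 in crypts, and the median of the probe sets gave -0.63. Crypts and E12 endoderm had neighbouring levels, within the range of the crypt arrays. Barx1 averaged 6.56 ± 0.25 in villi and 7.12 ± 0.22 in crypts (SD, n = 3 each), beside 6.54 in E12 mesenchyme, and neither adult group passed the test against that array (limma adjusted p = 0.96 for villi and 0.12 for crypts). Prrx1 was dim in E12 mesenchyme, at 5.35, and averaged 5.92 ± 0.17 in villi and 5.84 ± 0.22 in crypts (SD, n = 3 each).

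**Figure D4:**
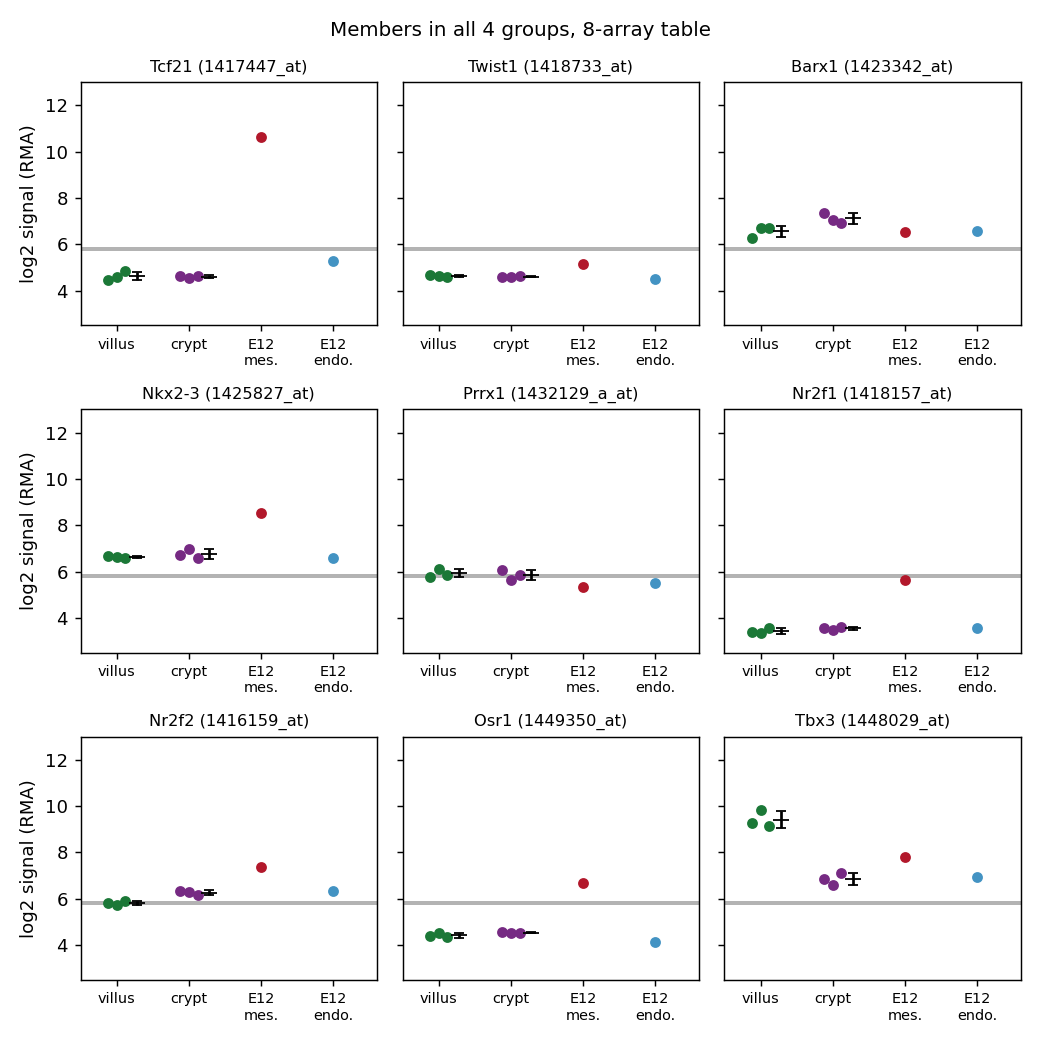
Log2 signal (RMA) of the probe set that stands for each member in adult villus, adult crypt, E12 mesenchyme and E12 endoderm of the 8-array table; points are arrays (3 for each adult group, 1 for each E12 layer), bars are the mean with its SD and the grey band is the 30th percentile of the arrays. Tcf21, Osr1, Nkx2-3 and Nr2f2 peak in E12 mesenchyme, and Nr2f1 and Twist1 are highest there but dim in every array. Tbx3 peaks in villus, Barx1 is highest in crypt and Prrx1 is nearly level.

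The genes most like each member were found by the root mean square distance of log2 values over the 14 arrays, after centring each table on the gene's mean, among 11120 genes. The gene nearest to Tcf21 was Hbb-y, an embryonic globin, at a distance of 0.29. Hbb-y was higher in mesenchyme by 5.28 ± 0.10 (SE, limma adjusted p = 1.2e-08). Ltbp4, a matrix protein that binds latent TGF-beta, was nearest to Nkx2-3 at 0.12, and Smtn, a smooth muscle protein, was nearest to Osr1 at 0.19. Rhoj was nearest to Nr2f1 at 0.16 and the syndecan Sdc2 to Nr2f2 at 0.17. Foxd3 was nearest to Twist1 at 0.12, N4bp3 to Barx1 at 0.19, and Psapl1 to Prrx1 at 0.08, where members with small differences lie close to many genes. Blcap was nearest to Tbx3 at 0.27 and was also higher in villi, by 1.96 ± 0.22 (SE, limma adjusted p = 0.00074). Among the members themselves the closest pair other than Barx1 and Prrx1 was Nkx2-3 and Osr1, at 0.34.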

How the data were processed

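Total RNA, extracted with an RNeasy kit and on-column DNase digestion per the labels' protocols, was hybridised to phycoerythrin-labelled single-colour arrays. The deposited values are log2 signals that the authors made with RMA, per the submitters' processing notes. Which RMA software and which genome build were used is not given in these sources. The 2 tables come from 2 platforms with the same 22690 probe sets and were normalized separately, so each fit stayed within 1 table, apart from an alternative with the table as a block. Array medians were 6.67 to 6.80 in the 8-array table and 6.17 to 6.34 in the 6-array table. The number of arrays limits the precision.

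Probe sets were named through the platform annotation, which was the same for both. Where a gene had several probe sets, the one brightest on average in a fit stood for it. Genes above the 30th percentile of a table in at least 3 arrays (2-group fits) or 1 array (4-group fits) were tested with limma 3.58.1 in R 4.3.3, two-sided, with Benjamini-Hochberg adjustment over all genes, and called at an adjusted p under 0.05. The fits were tested on simulated data. The members, the gene lists and the tests were chosen with earlier results of these data known. Named genes were the members, every relative, dimer partner and reported target, the 2 called genes with the largest difference of each other list (or 1 where none was called), fixed markers and the nearest gene of each member. Lists shown for a comparison were those that bear on it, and summed signals add the linear values of a list.

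The labels describe adult samples as from a mouse and E12 samples as pools. Whether crypts and villi of the same number share an animal is not stated, so p-values measure the spread between these samples. Deviations from the group means of same-numbered E12 samples correlated at 0.21, 0.23 and 0.11, above the criterion of 0.1 for the pairing of the numbers 2, 3 and 4. Mesenchyme 4 and endoderm 3 also reached 0.13. No array was a copy of another: at most 5 gene values were equal in a pair of arrays of the 8-array table, and at most 377 in the 6-array table, whose values have 2 decimals.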

Additional observations from a re-analysis of the deposited data

How the results depend on the processing

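Between the E12 layers the count of members called higher stayed at 7 of those tested under every alternative run, except for 8 without mesenchyme replicate 2, and the replicate block for the E12 pairing changed no member's call. Over 401 values of single members under an alternative, 375 kept direction and side of the threshold, 15 fell below it, 5 passed it and 6 changed sign. In villi against crypts, members called lower numbered 2 with the median of probe sets and 2 with a trended and robust prior, and 0 to 1 when 1 array was left out. All genes called there numbered 1044 to 1612 higher and 919 to 1549 lower with 1 array left out. With the replicate block for shared crypt and villus numbers, 835 genes were higher, 424 lower and 0 members lower, beside 1686 and 1496 genes without it. Such a block rests on 2 pairs and leaves fewer degrees of freedom. The sign changed for Prrx1 in villi against crypts (-0.029 to 0.19 with 1 array left out, -0.0042 with the block), for Nkx2-3 there (0.0020 with the block) and for Barx1 in villi against E12 mesenchyme (-0.060 to 0.16 with 1 array left out), and none of these was a called difference. Requiring signal above the 30th percentile in at least 3 arrays left 2 members lower in crypts and 2 lower in villi against E12 mesenchyme, and 2 members among 293 genes higher between the layers of the 8-array table, where Tcf21 and Osr1, bright in a single array, were not tested and Tbx3 in crypts missed the threshold (adjusted p = 0.052). Crypts against E12 mesenchyme had 1048 to 1847 genes higher with 1 array left out. In villi against crypts Barx1 passed the test with the median (adjusted p = 0.047), with the trended prior (0.035) and without villus replicate 41 (0.049). Nkx2-3 passed there with the median, at -0.47 (0.027). The cause of these changes was not tested. Where 1 array was left out of a 2-group fit, genes needed signal in at least 2 arrays. Signals under the 30th percentile limit what can be said of Prrx1 in the E12 layers, of Osr1 outside E12 mesenchyme, and of Twist1 and Nr2f1 outside the E12 mesenchyme of the 6-array table.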
